A study of Mus musculus with 6 samples.

Results

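Ion channels of the voltage-gated and potassium classes were examined in mouse thalamus after radiation and a NeuroD1 (ND1) virus. The members were the genes named as potassium channel subunits (Kcn), sodium channel subunits (Scn), voltage-gated calcium channel subunits (Cacna, Cacnb, Cacng) and HCN channels (Hcn) that had a summed count of 10 or more over the 6 mice. By that rule 131 of the 21899 genes listed were members, and 119 of them passed the filter on low counts among 14956 genes tested. All mice were male wild-type C57BL/6J, bought at 8 to 10 weeks of age, and all had received a single dose of 50 Gy of gamma rays to the left thalamus. Control mice (RC, n = 3) were then given 2 µL of AAV9 GFAP104::tdTomato in the thalamus 2 weeks after the injury model was made, and treated mice (RN, n = 3) the same volume of AAV9 GFAP104::mND1-tdTomato. GFAP104 is an astrocyte-directed promoter, so the transgene was aimed at astrocytes. The RNA, however, came from bulk thalamus tissue dissected beneath the hippocampus, taken 6 weeks after irradiation. No unirradiated mice were analysed here, so every difference given is between the viruses within irradiated tissue.

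Voltage-gated channels open and close with the membrane potential: sodium channels carry the upstroke of the action potential, potassium channels end it and set the resting potential, and calcium channels couple it to release and to gene expression. Each channel is a pore-forming alpha subunit or a ring of them, joined by auxiliary subunits that set its place, number and kinetics. In the thalamus, relay neurons are known for T-type calcium channels and HCN channels, which underlie burst firing and its rhythm, whereas astrocytes are known for Kir4.1, the inward rectifier that takes up potassium released by neurons.

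The labels were checked first. Neurod1 was at 4.71, 5.44 and 5.16 CPM (read counts scaled to the library size after TMM normalization) in RC1, RC2 and RC3 and at 66.8, 91.5 and 50.9 CPM in RN1, RN2 and RN3 (log2 fold change 3.77, SE 0.23, edgeR adjusted p = 0.00178). Every RN mouse lay above every RC mouse, and the count can include transcripts of the virus. Library totals lay between 16561663 and 18657015 counts, and the members held between 0.665% and 0.762% of each library. Marker lists for the cell types the tissue could hold also varied between mice. The 16 thalamic neuron markers, led by Tcf7l2, summed to 2288, 1650.1 and 3181 CPM in the RC mice and 2195, 1847 and 1297 CPM in the RN mice, so they were detected in every library, and 0 of them had a log2 fold change above 0. Hypothalamic markers summed to 328, 210.5 and 119.7 CPM in the RC mice and 609, 593 and 514 CPM in the RN mice, and pituitary markers to 84.2, 94.9 and 3.9 CPM in the RC mice and 1395, 655 and 3.36 CPM in the RN mice. Sums over the 16 neuron markers overlapped between the groups, from 7234.5 to 8891.9 CPM in the RC mice and from 8264.2 to 8527.1 CPM in the RN mice, while 15 of the 16 had a log2 fold change above 0 (median 0.085) and 0 had an unadjusted p under 0.05. In bulk tissue, fewer cells of a type and less RNA per cell cannot be told apart, and the p-values measure the spread between these mice alone.

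RN and RC were compared over all tested genes with edgeR's quasi-likelihood test, and a gene was called where its adjusted p was under 0.05 and it differed 2-fold or more. No member was called, beside 11 of the 14956 tested genes (0.0735%), and when the replicate numbers were added as a block 22 genes passed, again with 0 members among them. The smallest adjusted p of a member was 0.0989, shared by Kcnj10 and Kcne1l. DESeq2, the tool named in the study's methods, called 2 members under the same thresholds, among them Kcne2, against 179 of all tested genes (1.2%). In all 5 members had a DESeq2 adjusted p under 0.05 at any fold (4.2%, against 3.21% of all tested genes), among them Kcne1l (0.000607), Kcnj10 (0.000694), Kcne2 (0.00396) and Cacng5 (0.0195). The members' differences are therefore given as values with their errors, and no member is described as changed by the main test.

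At an unadjusted p under 0.05, 13 of the 119 tested members were higher in RN (10.9%, against 5.44% of all tested genes) and 7 were lower (5.88%, against 6.33%). The 3 mice of each group did not overlap for 13 members with RN above RC (10.9%, against 8.18% of all tested genes) and for 8 with RN below RC (6.72%, against 8.12%). By unadjusted p the share of members higher in RN was thus above that over all genes. By mice without overlap it was closer to the share over all genes (10.9%, against 8.18%). The share of members lower in RN was near or below that over all genes on both measures. That balance depended on the processing. With a choroid plexus score as a covariate 7 members were higher (5.88%, against 4.99% of all genes) and 16 lower (13.4%, against 4.45%). With an astrocyte score 3 were higher (2.52%, against 3.13%) and 6 lower (5.04%, against 6.06%). With the replicate number as a block the counts were 19 higher (16%, against 6.63%) and 6 lower (5.04%, against 6.97%). Leaving out RN3 left 7 members higher (5.83%, against 3.7% of all genes) and leaving out RN1 left 8 (6.72%, against 5.12%). Hypothalamic markers were higher in every RN mouse by their sum, and their part in the members' values was not tested. The median log2 fold change of the members was 0.047, beside 0.0037 over all tested genes. Above 0 lay 67 members (56.3%, against 50.8% of all tested genes), and 52 lay below. The same 50.8% stands beside the sign counts given for families and partners below. For 109 of the 119 tested members (91.6%, against 88.3% of all tested genes) the log2 fold change was smaller than 0.5 in size. A difference of 2-fold or more in either direction was seen for 4 tested members, among them Kcne2, Kcnj13 and Kcnq1.

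**Figure D1:**
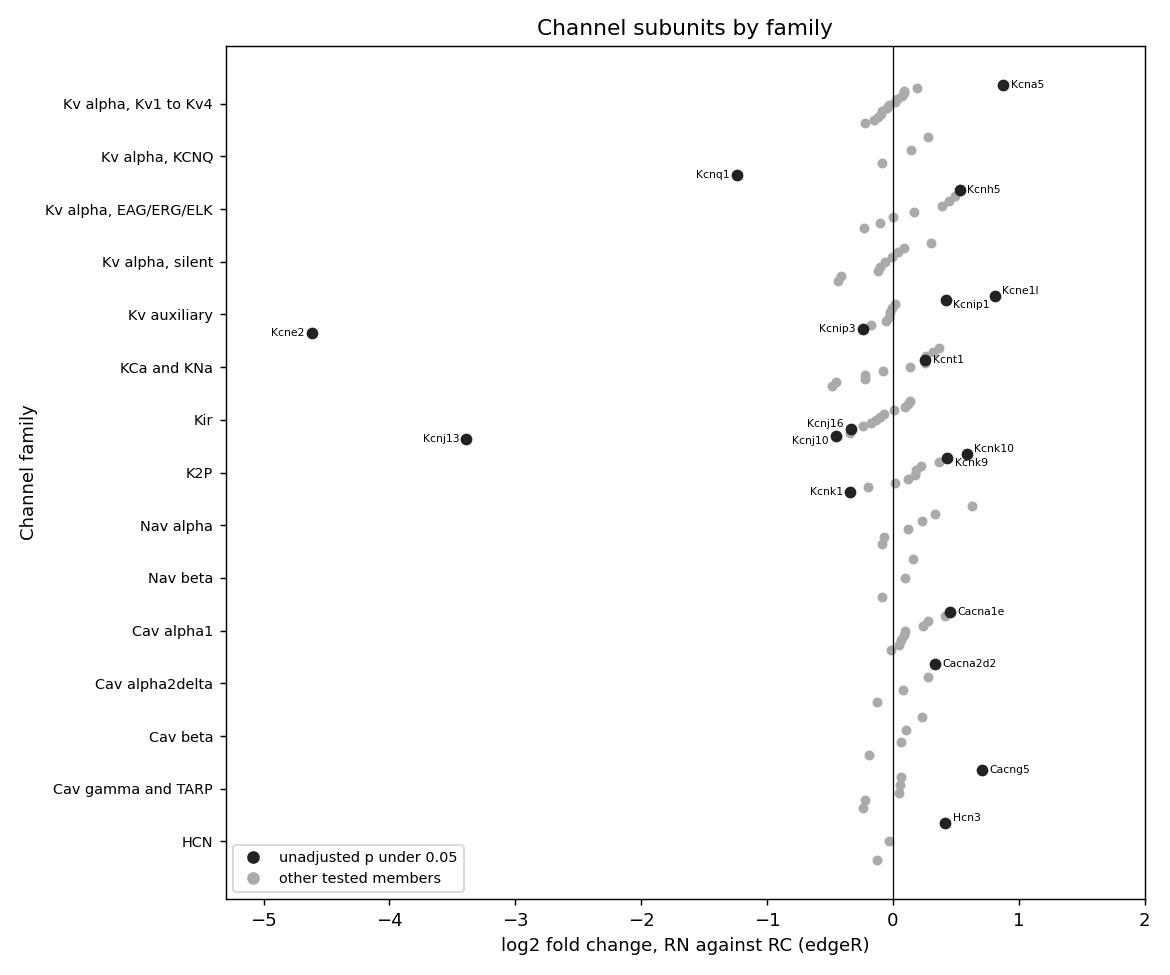
Log2 fold change of 114 tested members (horizontal axis, RN against RC, edgeR), in 1 line per channel family (vertical axis). Black points are the 18 of them with an unadjusted p under 0.05 and grey points the others. Most members sit within 0.5 of 0, and Kcne2 and Kcnj13 lie far to the left at -4.62 and -3.39.

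Inward rectifiers pass potassium more easily into the cell than out of it, and they included the member with the highest CPM. Kcnj10, which encodes Kir4.1, was at 706, 649 and 717 CPM in RC1, RC2 and RC3 and at 486, 548 and 483 CPM in RN1, RN2 and RN3. All 3 RN mice lay below all 3 RC mice, with means of 691 ± 36.4 in RC against 506 ± 36.9 CPM in RN (SD, n = 3) (log2 fold change -0.45, SE 0.086, edgeR adjusted p = 0.0989). Kcnj16, whose product Kir5.1 joins Kir4.1 in mixed channels, was at 42.9, 44.9 and 39.9 CPM in the RC mice and 36.3, 30.9 and 34.1 CPM in the RN mice and also did not overlap (log2 fold change -0.33, SE 0.10, edgeR adjusted p = 0.227). The 14 astrocyte markers, which did not include either gene, summed to 8117, 10290 and 8618 CPM in the RC mice and 5944, 7122 and 6972 CPM in the RN mice. All 14 had a log2 fold change below 0, 11 of them at an unadjusted p under 0.05 and 0 called, with a median of -0.42 beside -0.45 for Kcnj10 and -0.33 for Kcnj16. With an astrocyte score in the model, added after the data had been seen, Kcnj10 had a log2 fold change of -0.44 (SE 0.23, edgeR adjusted p = 0.632) and Kcnj16 a log2 fold change of -0.45 (SE 0.27, edgeR adjusted p = 0.692). The marker sums did not overlap between the groups, so the score and the group cannot be told apart fully.

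Kcnj13, which encodes the epithelial channel Kir7.1, was at 17.5, 51.9 and 1.43 CPM in the RC mice and 2.8, 3.15 and 0.783 CPM in the RN mice. RC1 and RC2 were far above the rest, whereas RC3 lay within the RN range (log2 fold change -3.39, SE 1.05, edgeR adjusted p = 0.236). By the exons of GENCODE M21, 49.1% of its bases overlap Gigyf2 on the opposite strand, so reads of both genes may not have been told apart. Channels of the G protein-gated group (GIRK) were led by Kcnj9, which is strong in thalamic neurons and lay at 76.4 to 122 CPM in the RC mice and 67 to 81.1 CPM in the RN mice (log2 fold change -0.34, SE 0.17, edgeR adjusted p = 0.503). The other GIRK subunits, Kcnj3, Kcnj5 and Kcnj6, had log2 fold changes of -0.18, 0.12 and 0.0071. The pores of ATP-sensitive channels overlapped between the groups, with 3.93 to 6.93 CPM in the RC mice and 2.8 to 6.79 CPM in the RN mice for Kcnj8, the form of pericytes and smooth muscle, and 22.4 to 27.2 CPM in the RC mice and 24 to 29.1 CPM in the RN mice for Kcnj11, the form of neurons.

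Summed over its 14 members, the Kir family was the only potassium channel family whose sum was lower in every RN mouse. Its sums were 996, 967 and 1063 CPM in the RC mice and 745, 796 and 758 CPM in the RN mice, and Kcnj10 made up between 63.7% and 70.9% of them. Without Kcnj10 the sums were 289.7, 317.4 and 345.6 CPM in the RC mice and 259.2, 248.0 and 275.5 CPM in the RN mice, still without overlap. Those sums held Kcnj13, which lay at 1.43 to 51.9 CPM in the RC mice and 0.783 to 3.15 CPM in the RN mice. With Kcnj13 left out as well, the sum in RN3 lay above those in RC1 and RC2, so the groups overlapped. Of the 13 Kir members tested, 9 had a log2 fold change below 0 and 4 above, with a median of -0.13.

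**Figure D2:**
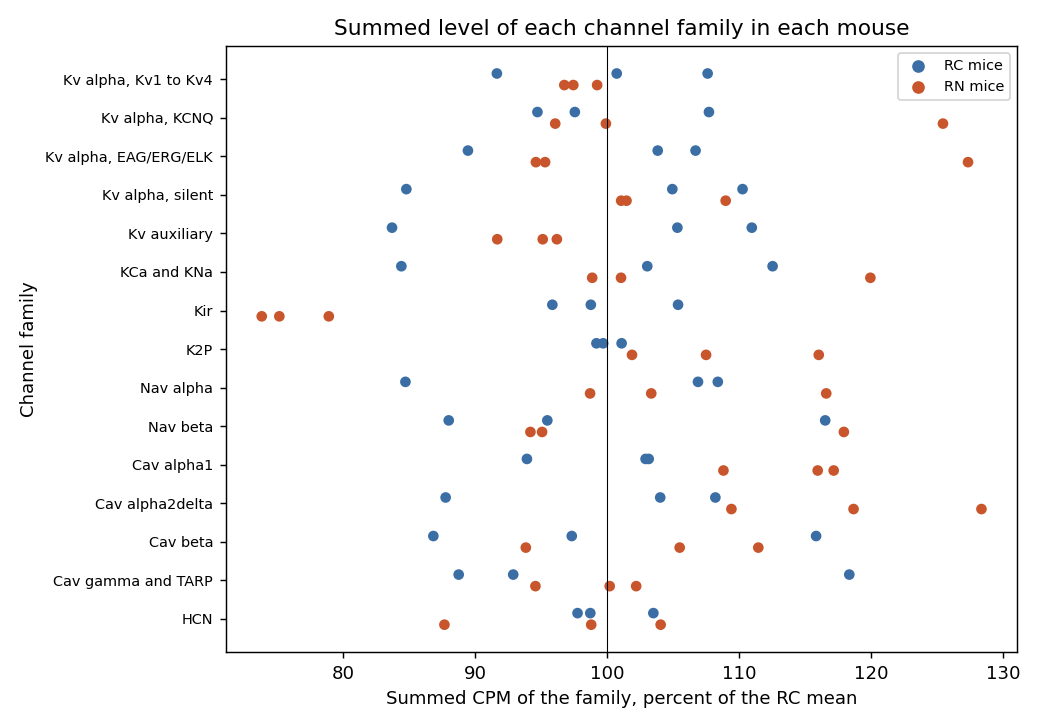
Summed CPM of each channel family in each mouse, as a percent of the mean of the 3 RC mice (horizontal axis), for the 15 families (vertical axis). Blue points are RC mice and orange points RN mice. Only the Kir, K2P, Cav alpha1 and Cav alpha2delta families have RN mice wholly on 1 side of the RC mice.

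Auxiliary subunits of voltage-gated potassium channels held both a member with one of the smallest p-values and the member with the largest fold change. Kcne1l, also known as Kcne5, encodes a single-pass subunit that lowers current through KCNQ1. It was at 16.2, 22 and 19.8 CPM in the RC mice and 32.2, 39.2 and 30.1 CPM in the RN mice, so the groups did not overlap (log2 fold change 0.81, SE 0.15, edgeR adjusted p = 0.0989). Its log2 fold change lay between 0.69 and 0.91 when any 1 mouse was left out. Kcne2, another single-pass subunit, is known in choroid plexus epithelium, where it joins KCNQ1. Its values were 12, 29.9 and 1.2 CPM in the RC mice and 0.297, 0.749 and 0.671 CPM in the RN mice (log2 fold change -4.62, SE 1.05, edgeR adjusted p = 0.136), and the RC mice alone spanned a wide range, from 1.2 to 29.9 CPM. Kcnq1, the partner pore, lay at 1.91, 2.99 and 3.15 CPM in the RC mice and 0.595, 1.44 and 1.34 CPM in the RN mice, again without overlap but at low counts (log2 fold change -1.24, SE 0.40, edgeR adjusted p = 0.261).

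Markers of choroid plexus, the epithelium that secretes cerebrospinal fluid, followed the same mice as Kcne2 and Kcnj13. The 16 markers summed to 4140.2, 11195 and 779 CPM in the RC mice and 448, 491 and 477 CPM in the RN mice, and Ttr, the gene the list opens with, was at 2480.2, 7626 and 257 CPM in the RC mice and 24.7, 62.5 and 91.8 CPM in the RN mice. RC2, RC1 and RC3 had the same order, from high to low, for the marker sum, Ttr, Kcne2 and Kcnj13. Kcnq1 did not share that order and was highest in RC3 at 3.15 CPM, beside 2.99 CPM in RC2 and 1.91 CPM in RC1. All 16 markers had a log2 fold change below 0, 15 of them at an unadjusted p under 0.05 and 0 called by edgeR. With a choroid plexus score in the model Kcne2 had a log2 fold change of -0.30 (SE 0.46, edgeR adjusted p = 0.885), Kcnj13 a log2 fold change of 1.35 (SE 0.98, edgeR adjusted p = 0.73) and Kcnq1 a log2 fold change of -1.27 (SE 0.62, edgeR adjusted p = 0.586). The marker sums of the RC mice all lay above those of the RN mice, so this score and the group cannot be told apart fully either. When 1 mouse was left out, the log2 fold change of Kcne2 lay between -5.16 and -3.50. It passed both thresholds without RC3 (-5.16, edgeR adjusted p = 0.0249) and in none of the other 5 cases, among them without RC2 (-3.50, edgeR adjusted p = 0.237).

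**Figure D3:**
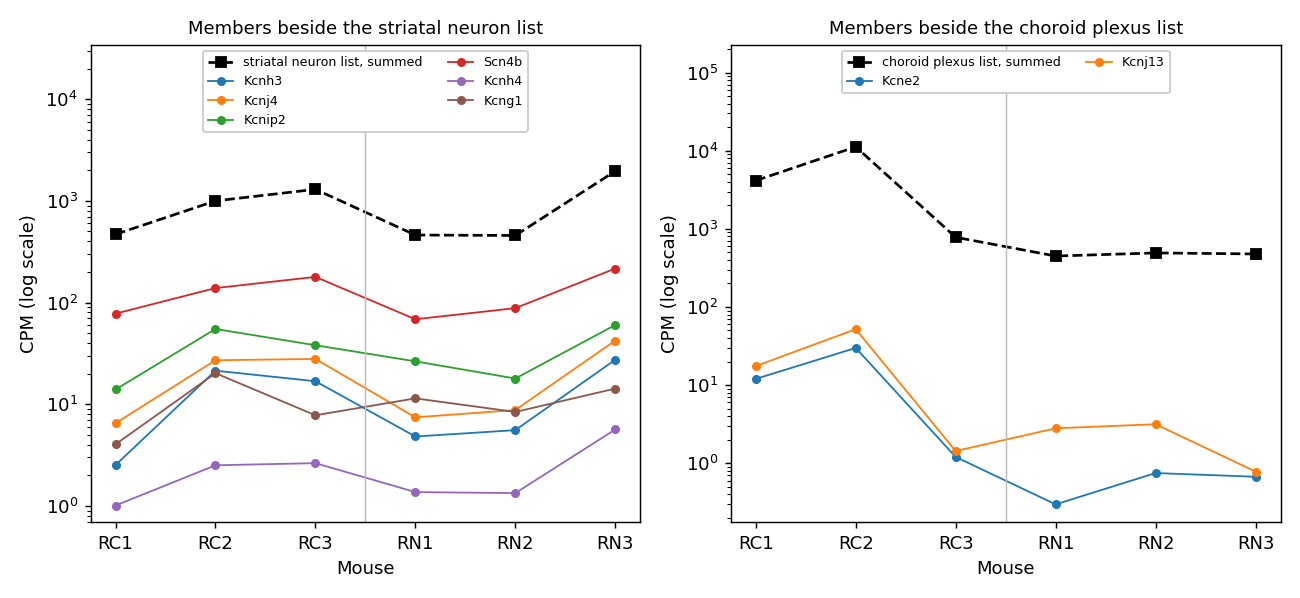
CPM of members in each of the 6 mice on a log axis, with the summed CPM of a marker list as black squares. On the left, Kcnh3, Kcnj4, Kcnip2, Scn4b and Kcnh4 are high in RC2, RC3 and RN3 like the striatal list. Kcng1 is high in RC2 and RN3 but not in RC3. On the right, Kcne2 and Kcnj13 are high in RC1 and RC2 like the choroid plexus list.

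The 250 bases before the start of the 3 members with the smallest p are shown because ND1 is a transcription factor of the bHLH class, which binds the E-box CANNTG. They were read from the RefSeq promoter table (build GRCm38.p6), 5′ to 3′ on the gene's strand, with every E-box in capitals. For Kcne1l the window was shortened to the 154 bases outside the gene of GENCODE M21.
Kcnj10 (chr1:172340960-172341209, plus strand): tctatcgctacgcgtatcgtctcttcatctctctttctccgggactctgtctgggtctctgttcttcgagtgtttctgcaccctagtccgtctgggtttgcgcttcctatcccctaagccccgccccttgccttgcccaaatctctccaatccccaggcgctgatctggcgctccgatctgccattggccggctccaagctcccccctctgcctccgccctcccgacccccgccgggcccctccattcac
Kcne1l (chrX:142306295-142306448, minus strand): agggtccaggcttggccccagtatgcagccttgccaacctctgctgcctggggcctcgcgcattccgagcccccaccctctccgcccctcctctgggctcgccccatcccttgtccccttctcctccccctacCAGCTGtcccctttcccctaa
Kcne2 (chr16:92292139-92292388, plus strand): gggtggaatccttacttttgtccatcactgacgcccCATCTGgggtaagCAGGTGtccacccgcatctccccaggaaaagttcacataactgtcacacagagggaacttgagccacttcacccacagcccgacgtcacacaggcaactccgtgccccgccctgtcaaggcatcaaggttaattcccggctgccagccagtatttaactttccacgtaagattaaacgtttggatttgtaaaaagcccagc
Kcnj10 held no E-box in this window, Kcne1l 1 and Kcne2 2. The motif reads the same on both strands. Of 131 member promoters, belonging to the 95 members with an entry, 64.9% held the E-box, against 66.2% of all 32851 promoters. The narrower form favoured by NeuroD factors, CAGATG on either strand, which overlaps the general one, was in 12.2% of the member promoters and 14.4% of all, and the first E-box shown for Kcne2 is of this form. Thus the members' share was near the share over all promoters for both motifs, and these matches are descriptions of the letters alone.

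The Kv4 partners named KChIPs, calcium-binding proteins that raise the surface level of Kv4, had log2 fold changes of both signs. Kcnip1 was at 51, 37.5 and 44.3 CPM in the RC mice and 67.8, 55.9 and 54.1 CPM in the RN mice (log2 fold change 0.42, SE 0.14, edgeR adjusted p = 0.265). Kcnip3, also known as the repressor DREAM, was at 85.3, 100.1 and 105 CPM in the RC mice and 86.8, 80.2 and 79.3 CPM in the RN mice, where 1 RN mouse lay above the lowest RC mouse (log2 fold change -0.24, SE 0.10, edgeR adjusted p = 0.408). Kcnip4 had a log2 fold change of -0.026. Among the cytoplasmic beta subunits of Kv1, Kcnab2 had the highest level at 60.0 CPM per kilobase of exon, and its values overlapped (281 to 406 CPM in the RC mice and 287 to 355 CPM in the RN mice).

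Pore-forming Kv1 to Kv4 subunits mostly overlapped between RC and RN. Of 15 tested, 7 had a log2 fold change above 0 and 8 below, with a median of -0.030. Kcna5 was the single one without overlap; it encodes Kv1.5 and was at 7.35, 4.12 and 7.5 CPM in the RC mice and 9.52, 9.95 and 15.4 CPM in the RN mice (log2 fold change 0.88, SE 0.28, edgeR adjusted p = 0.255). Its highest value, in RN3, was well above the other RN mice, and the log2 fold change was 0.62 without that mouse. Kcna6, the Kv1 gene with the highest level per kilobase (25.9 CPM per kilobase), stayed within 149 to 166 CPM in the RC mice and 146 to 152 CPM in the RN mice.

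Kv3 channels allow fast firing and are strong in thalamic and reticular neurons. Kcnc1 was at 173, 179 and 194 CPM in the RC mice and 182, 181 and 172 CPM in the RN mice, 1 of the narrowest ranges among the members. Kcnc2 and Kcnc4 had log2 fold changes of -0.22 and 0.086, with edgeR adjusted p of 0.721 and 0.825. Kcna3, the Kv1.3 gene known from microglia and T cells, was low and spread, at 1.97 to 5.55 CPM in the RC mice and 2.62 to 4.88 CPM in the RN mice.

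KCNQ channels carry the M current, a slow brake on firing. Kcnq3 was at 94.4, 74.2 and 120.2 CPM in the RC mice and 90.3, 89.6 and 91.6 CPM in the RN mice, so that the RC mice spread to both sides of the RN mice. Its log2 fold change was -0.089 and that of Kcnq5 was 0.28, neither near the threshold (edgeR adjusted p = 0.897 and 0.781). In the EAG, ERG and ELK group, Kcnh5 was at 4.21, 2.99 and 4.07 CPM in the RC mice and 6.25, 5.08 and 4.98 CPM in the RN mice (log2 fold change 0.53, SE 0.22, edgeR adjusted p = 0.407). Kcnh2, the ERG gene known from cardiac repolarization, was almost level, at 74.2 to 86.3 CPM in the RC mice and 77 to 83.5 CPM in the RN mice. Silent subunits, which give no current alone and modify Kv2 channels, had no member at an unadjusted p under 0.05 among 9 tested, and Kcns2 lay highest with a log2 fold change of 0.30.

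Calcium- and sodium-activated potassium channels link potassium current to activity. Kcnt1, the sodium-activated channel Slack, was at 37.6, 37.8 and 38.6 CPM in the RC mice and 47.6, 38.7 and 49.99 CPM in the RN mice, where the lowest RN mouse lay just above the highest RC mouse (log2 fold change 0.26, SE 0.11, edgeR adjusted p = 0.424). Kcnmb1, the BK beta subunit of smooth muscle, was at 5.1, 4.18 and 5.67 CPM in the RC mice and 3.51, 3.37 and 3.8 CPM in the RN mice (log2 fold change -0.49, SE 0.21, edgeR adjusted p = 0.427). Kcnn4, the intermediate-conductance channel of microglia and blood cells, was likewise lower in each RN mouse, at 4.16, 3.96 and 3.97 CPM against 6.39, 4.24 and 5.9 CPM in RC (log2 fold change -0.45, SE 0.22, edgeR adjusted p = 0.485). Among the small-conductance SK genes, Kcnn1 lay above RC in every RN mouse and Kcnn2 below, with log2 fold changes of 0.32 and -0.22 (edgeR adjusted p = 0.454 and 0.615). For Kcnn2, RC1 at 19.405 CPM and RN1 at 19.392 CPM all but met. Kcnma1, the BK pore, overlapped widely at 102 to 157 CPM in the RC mice and 128 to 185 CPM in the RN mice.

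Tandem-pore (K2P) channels carry the background leak that sets the resting potential, and 8 of the 10 tested had a log2 fold change above 0. Kcnk10, which encodes the mechanosensitive channel TREK-2, was at 9.25, 8.01 and 7.68 CPM in the RC mice and 12.4, 11.4 and 13.7 CPM in the RN mice (log2 fold change 0.59, SE 0.15, edgeR adjusted p = 0.176). Kcnk9, the acid-sensitive channel TASK-3, was at 103, 69.7 and 65.4 CPM in the RC mice and 107, 103 and 110.3 CPM in the RN mice (log2 fold change 0.43, SE 0.16, edgeR adjusted p = 0.345), and RC1 lay next to the RN mice while RC2 and RC3 were low. Kcnk1, which encodes TWIK-1, was the opposite case, with 74.7, 108 and 98.9 CPM in the RC mice and 65.9, 75.4 and 81.2 CPM in the RN mice (log2 fold change -0.34, SE 0.15, edgeR adjusted p = 0.421), although RC1 lay within the RN range. The microglial leak channel THIK-1, encoded by Kcnk13, was at 15 to 18.6 CPM in the RC mice and 18.1 to 19.5 CPM in the RN mice. Summed over the family, the values were 278, 274 and 273 CPM in the RC mice and 280.1, 295 and 319 CPM in the RN mice, and without Kcnk9 the sums overlapped.

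HCN channels open on hyperpolarization and pace rhythmic firing. Hcn2, the main thalamic form, was the most abundant at 86.5 CPM per kilobase and lay at 277, 293 and 295 CPM in the RC mice and 271, 292 and 229 CPM in the RN mice (log2 fold change -0.13, SE 0.10, edgeR adjusted p = 0.723). Hcn4, the other form of relay neurons, lay at 22.3 to 43.6 CPM in the RC mice and 30.6 to 35.4 CPM in the RN mice (log2 fold change -0.035, SE 0.22, edgeR adjusted p = 0.979). Hcn3, less abundant than Hcn2, was at 24.1, 19.4 and 20.1 CPM in the RC mice and 26.1, 28.1 and 30.6 CPM in the RN mice, without overlap (log2 fold change 0.42, SE 0.13, edgeR adjusted p = 0.231). Exons of Hcn3 overlap those of Pklr on the opposite strand over 17.1% of their length.

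**Figure D4:**
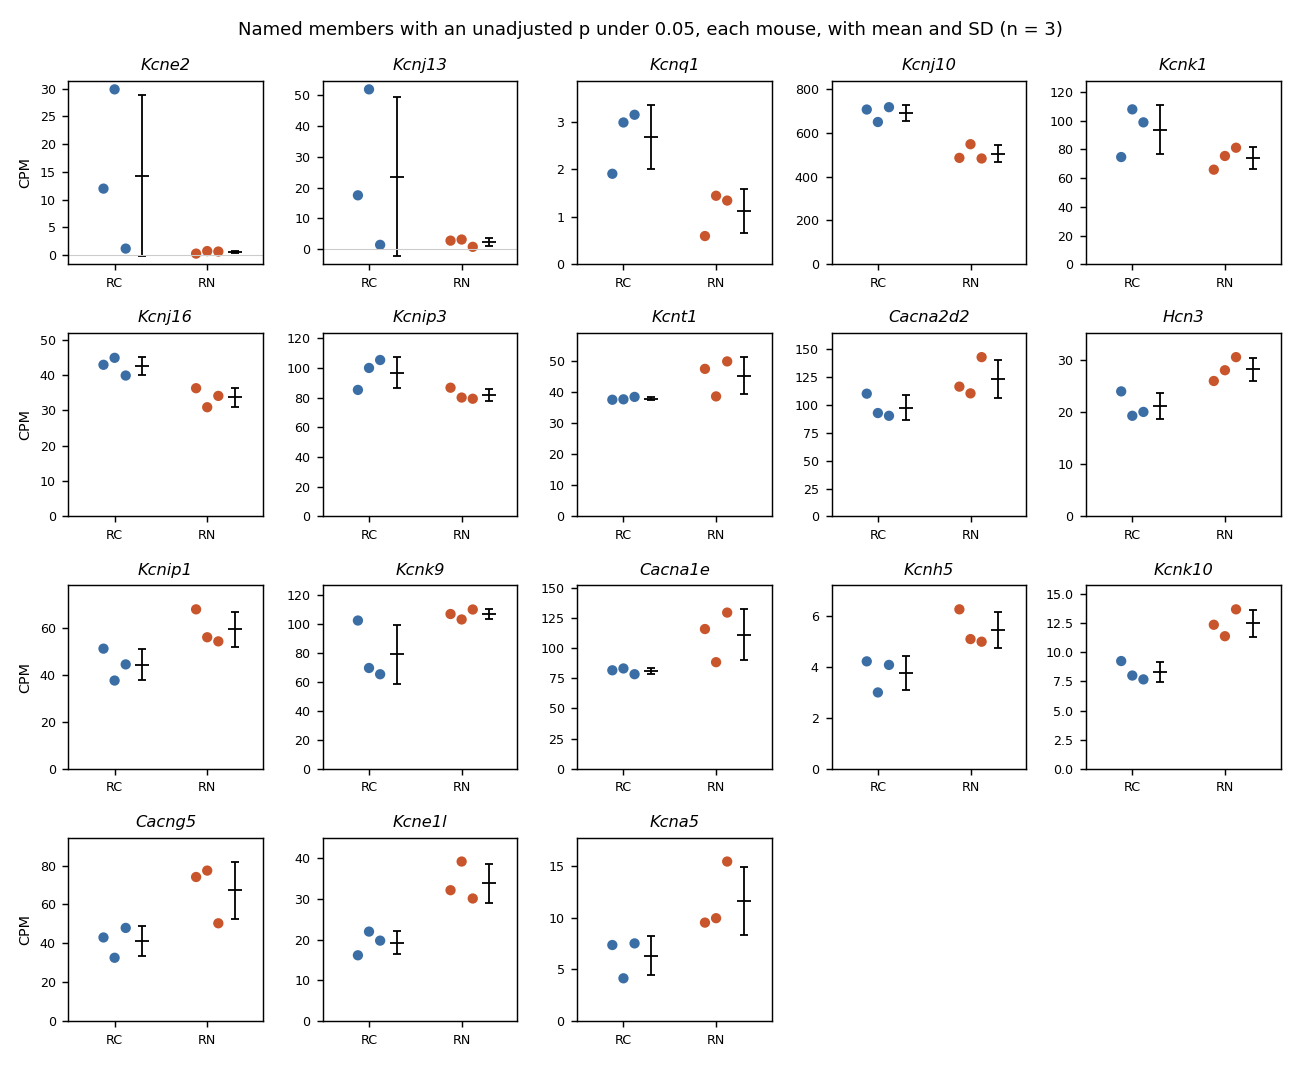
CPM (vertical axis) in each RC mouse (blue) and RN mouse (orange) for 18 members with an unadjusted p under 0.05, with the mean and SD of each group (n = 3) as black bars, ordered by log2 fold change. The 3 RC mice are far apart for Kcne2 and Kcnj13, whereas both groups are tight for Kcnj10, Kcnj16 and Kcnk10.

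Of the sodium channel pores tested, 5 of 7 had log2 fold changes above 0, and the median was 0.23. Scn9a and Scn3a had log2 fold changes of 0.63 and 0.34 with overlapping mice (edgeR adjusted p = 0.549 and 0.558). With 1 mouse left out they ran from 0.34 without RC2 to 1.13 without RC1 for Scn9a, and from 0.14 to 0.52 without the same mice for Scn3a. Scn9a encodes Nav1.7, known from sensory neurons, and Scn3a a form of the developing brain. The main pores of adult brain neurons had log2 fold changes nearer to 0, of -0.086 for Scn1a, 0.23 for Scn2a and -0.0697 for Scn8a. Of the beta subunits, which anchor the pores and adhere to other cells, Scn2b was at 55.2 CPM per kilobase. Its mice overlapped, at 223 to 283 CPM in the RC mice and 240.3 to 285 CPM in the RN mice. For Scn3b the ranges were 96.1 to 131 CPM in the RC mice and 111 to 136 CPM in the RN mice.

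Of the 9 calcium channel pores tested, 8 had a log2 fold change above 0, with a median of 0.092. Cacna1e, the R-type pore, was at 81.5, 83.1 and 78.3 CPM in the RC mice and 116, 88.3 and 129 CPM in the RN mice, without overlap (log2 fold change 0.46, SE 0.14, edgeR adjusted p = 0.221). Without RN3 its log2 fold change was 0.33, and without RN2 0.59. Cacna1b, the N-type pore of presynaptic terminals, was at 78.2, 58 and 60.9 CPM in the RC mice and 80.7, 76.1 and 81.9 CPM in the RN mice, where RC1 lay inside the RN range (log2 fold change 0.28, SE 0.12, edgeR adjusted p = 0.431). Among the T-type pores, Cacna1g, the burst-firing form of relay neurons, was at 74.8 to 121 CPM in the RC mice and 80.6 to 115 CPM in the RN mice, and Cacna1h and Cacna1i had log2 fold changes of 0.41 and 0.24, which were 0.23 and 0.058 without RN3. Over the family the sums were 526, 479 and 525 CPM in the RC mice and 591, 555 and 597 CPM in the RN mice, and they remained apart without Cacna1e.

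Alpha2delta subunits bring calcium channels to the surface, and some of them are the targets of gabapentin-like drugs. Cacna2d2 was at 110.0, 92.6 and 90.2 CPM in the RC mice and 116, 110.2 and 143 CPM in the RN mice, and RC1 and RN2 all but met (log2 fold change 0.33, SE 0.13, edgeR adjusted p = 0.341). Cacna2d1 was at 85.1, 58 and 72.4 CPM in the RC mice and 103, 84.1 and 73.9 CPM in the RN mice, with overlap (edgeR adjusted p = 0.601). The family sums of 248, 201 and 238 CPM in the RC mice and 271, 250.3 and 294 CPM in the RN mice did not overlap, but did without Cacna2d2. Beta subunits, which sit on the inner side of the pore, had log2 fold changes from -0.19 for Cacnb4 to 0.23 for Cacnb1, and their mice overlapped in all 4 genes.

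The gamma group is mostly made of TARPs, which escort AMPA-type glutamate receptors. Cacng5 was at 43, 32.5 and 47.9 CPM in the RC mice and 74.1, 77.4 and 50.3 CPM in the RN mice, with RN1 and RN2 far above RC and RN3 just above RC3 (log2 fold change 0.71, SE 0.19, edgeR adjusted p = 0.193). Cacng7, its close relative and the most abundant of the group at 66.7 CPM per kilobase, had a log2 fold change of the other sign, with 157, 164 and 208 CPM in the RC mice and 156, 148 and 143 CPM in the RN mice (log2 fold change -0.24, SE 0.12, edgeR adjusted p = 0.496). Cacng2 (stargazin), Cacng3, Cacng4 and Cacng8 all overlapped, with log2 fold changes of -0.22, 0.065, 0.047 and 0.053.

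The spread among mice of the same group was wide for a number of channel subunits. The median SD of log2 CPM within groups was 0.25 over the tested members and 0.18 over all tested genes, and 18 of the 119 members lay among the 10% of all genes with the largest SD. Apart from Kcne2 and Kcnj13, the members with the largest SD were Kcnh3, Kcnj4, Kcnip2, Kcnh4, Kcng1 and Scn4b, and none of them differed between the groups at an unadjusted p under 0.05. Kcnh3, an ELK channel of forebrain neurons, was at 2.52, 21.4 and 16.8 CPM in the RC mice and 4.82, 5.56 and 27.4 CPM in the RN mice. Kcnj4, the inward rectifier Kir2.3, was at 6.51, 27.1 and 27.9 CPM in the RC mice and 7.44, 8.77 and 42.3 CPM in the RN mice. Scn4b, the sodium channel beta subunit known from striatal and Purkinje neurons, was at 77.8, 139 and 179 CPM in the RC mice and 68.5, 88.1 and 216 CPM in the RN mice. All of these were high in RC2, RC3 and RN3 and low in the other mice of both groups. Kcnip2, a KChIP, had the same high mice, at 14, 55 and 38 CPM in the RC mice and 26.4, 17.9 and 60.2 CPM in the RN mice. So did Kcnh4, another ELK channel, at 1.01, 2.51 and 2.63 CPM in the RC mice and 1.37, 1.34 and 5.65 CPM in the RN mice. Kcng1 did not share all of these high mice, at 4.04, 20.2 and 7.79 CPM in the RC mice and 11.4, 8.39 and 14.3 CPM in the RN mice. It was high in RC2 and RN3, but RC3 lay below every RN mouse.

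A list of 10 striatal neuron markers, written after this spread had been seen, summed to 469, 999 and 1298 CPM in the RC mice and 461, 457 and 1962 CPM in the RN mice. The list opens with Ppp1r1b, which encodes the dopamine-signalling protein DARPP-32 and was at 69.7, 248 and 262 CPM in the RC mice and 32.3, 32.3 and 351 CPM in the RN mice. High and low mice were thus the same for the striatal list and for Kcnh3, Kcnj4, Kcnip2, Kcnh4 and Scn4b. Cortical and hippocampal markers did not share that order, at 463, 597 and 547 CPM in the RC mice and 545, 544 and 422 CPM in the RN mice. With a striatal score in the model, also added later, the log2 fold changes were -0.094 for Kcnh3, -0.13 for Kcnj4 and -0.061 for Scn4b, beside -0.11, -0.0702 and -0.085 without it.

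Counted by mouse, RC3 held the highest CPM of the 6 mice for 36 of 119 (30.3%) and RN3 for 31 (26.1%), while RC1 did for 6 (5.04%). The lowest CPM was in RC2 for 41 (34.5%) and in RN2 for 8 (6.72%). The same shares over all tested genes were not computed, so these counts only describe the members. Several members known from thalamic relay neurons had their highest value in RC3, where the thalamic markers also summed highest. These included Hcn4, at 34.4, 22.3 and 43.6 CPM in the RC mice and 31.9, 35.4 and 30.6 CPM in the RN mice, Cacna1g, at 108, 74.8 and 121 CPM in the RC mice and 115, 105 and 80.6 CPM in the RN mice, and Kcnj9, at 85.9, 76.4 and 122 CPM in RC. The part of the thalamic share of the tissue in these values was not tested.

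Compared per length, the members covered a wide range of levels. The median over the tested members was 6.07 CPM per kilobase, and Kcng3 was lowest at 0.185. Among the highest were Kcnj10 at 111, Hcn2 at 86.5, Cacng7 at 66.7, Kcnab2 at 60.0 and Scn2b at 55.2 CPM per kilobase. By family the median level was highest for the sodium channel beta subunits (40.4 CPM per kilobase) and lowest for the EAG, ERG and ELK group (1.02) and the calcium- and sodium-activated channels (1.12). Kcna5 and Kcnk10 lay below the median at 3.14 and 1.19 CPM per kilobase, whereas Kcne1l and Cacng5 lay above it at 17.2 and 14.1.

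Genes that work with these channels but fall outside the rule were taken as a list of 38 partners, of which 35 were tested. At an unadjusted p under 0.05, 6 were higher in RN (17.1%, against 5.44% of all tested genes) and 1 was lower (2.86%, against 6.33%). None was called by edgeR, 26 lay above 0 and 9 below, and the median log2 fold change was 0.12. Of the 35 tested partners, the mice did not overlap for 7 with RN above RC and 3 with RN below. The shares over all tested genes were 8.18% above and 8.12% below. Dpp6, a Kv4 auxiliary protein, was at 347, 290.0 and 344 CPM in the RC mice and 376, 381 and 400.4 CPM in the RN mice (log2 fold change 0.24, SE 0.093, edgeR adjusted p = 0.364). Rrad and Gem, small GTPases that inhibit calcium channels, had log2 fold changes of 1.00 and 0.96 (edgeR adjusted p = 0.124 and 0.262). Cntnap2, which clusters Kv1 channels beside the node of Ranvier, was at 125, 95.2 and 101 CPM in the RC mice and 158, 126 and 153 CPM in the RN mice (log2 fold change 0.44, SE 0.13, edgeR adjusted p = 0.22).

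The remaining members were too low for the filter of the main fit. In all, 12 had no more than 18 counts in any mouse: Kcna10, Kcnv2, Kcne3, Kcnj15, Kcnk7, Scn4a, Scn10a, Scn11a, Cacna1f, Cacng1, Cacng6 and Kcnrg. Kcnrg is named like a channel but encodes a regulator that is not a channel subunit, and it took no part in the families. A further 7 names that fit the pattern had fewer than 10 counts in all, among them Kcnj1 with 8 and Kcnk16 with 6. At these depths a count of 0 allowed up to 3 counts, or 0.16 to 0.179 CPM. Of the 12, 3 had groups that did not overlap in CPM and were not tested in the main fit. How often this held among other genes below the filter was not computed, so the count only describes these members. Kcna10 had 0, 1 and 2 counts in the RC mice and 6, 3 and 5 in the RN mice, Kcne3 6, 4 and 4 against 0, 0 and 2, and Cacna1f 8, 1 and 8 against 0, 1 and 1.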

How the data were processed

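RNA of dissected thalamus tissue from 3 RC and 3 RN mice was measured by RNA-seq. The authors deposited a table of whole-number read counts, with 1 unnormalized column for each mouse. The submitters' processing notes list fastp 0.18.0, FastQC, HISAT2, RSEM 1.2.19 and the build GRCm39; the annotation, strand setting and treatment of shared reads are not given in the sources used here, so overlapping genes may share reads. Groups and replicate numbers came from the labels.

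Genes with low counts were removed with filterByExpr (minimum count 10), libraries were scaled by TMM, and a model of group was fitted with edgeR 4.0.16 in R 4.3.3 (quasi-likelihood, two-sided, Benjamini-Hochberg over 14956 genes). Fitted log2 fold changes used a prior count of 0.125 and log2 CPM a prior count of 2. The script was tested on simulated data. CPM values use TMM-scaled library sizes. Levels per kilobase used exon lengths of GENCODE M21 (GRCm38), matched by gene ID. The alternatives were DESeq2 1.42.0, its size factors, no filter, at least 10 counts in every mouse, the replicate block, choroid plexus and neuron scores, and leaving out each mouse; the striatal list and the cortical, astrocyte and striatal scores were chosen after seeing the data. Deviations from the group means correlated by 0.17, 0.12 and 0.21 between mice with the same number. Between mice with different numbers they correlated by -0.28 to 0.16. The numbers were taken as pairs in the replicate block alone, and the labels name no shared origin.

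Members and gene lists were chosen with earlier results of these data known. Members were named if they had an unadjusted p under 0.05 with a 2-fold difference, were among the 3 smallest p or the 2 highest levels per kilobase of their family, or are known for 1 cell type. Members that varied most within groups, those counted without overlap, and others given as values to complete a family were named after their values were seen. From each marker list the first gene and up to 3 genes by smallest p could be named. Depth was 16561663 to 18657015 counts a mouse. A count of 0 was read as up to 3 counts, which covers counting error only. A few members are not reported here by name. Members too low for the filter were not tested in the main fit, and other assays of the study were not analysed here.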

Additional observations from a re-analysis of the deposited data

How the results depend on the processing

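No member was called under DESeq2's size factors, without the filter, with the stricter filter (10 counts or more in each mouse), the replicate block, or the choroid plexus, cortical, astrocyte and striatal scores. DESeq2 called 1 member higher and 1 lower (Kcne2), the neuron score 1 higher, and leaving out 1 mouse 0 higher and 0 to 1 lower (Kcne2, without RC3). Over all genes 179 were called by DESeq2, 43 with no filter, 22 with the replicate block, 30, 6, 7, 1 and 0 with the neuron, cortical, striatal, choroid plexus and astrocyte scores, and 3 to 30 with 1 mouse left out. The last range was 3 without RN2 and 30 without RN1, beside 23 without RC3 and 4 without RC1 or RC2. At an unadjusted p under 0.05, members higher were 7 with the choroid plexus score (5.88%, against 4.99% of all genes), 3 with the astrocyte score (2.52%, against 3.13%) and 7 to 16 with 1 mouse left out (5.83% to 13.4%, against 3.7% to 6.72%). Members lower were 16 and 14 with the choroid plexus and neuron scores (13.4% and 11.8%, against 4.45% and 5.41%) and 5 to 12 with 1 mouse left out (4.17% without RC3 or RN2 to 10% without RC2, against 6.52%, 6.14% and 5.55%). Without RC2, 12 members were thus lower and 12 higher. The median log2 fold change was -0.088 with the choroid plexus score and 0.0086 to 0.13 with 1 mouse left out. Where a setting moved these values, the cause was not tested. Astrocyte and choroid plexus marker sums did not overlap between the groups, so these scores are confounded with the group.

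Among the 78 tested members named here, the replicate block turned the sign of Hcn4 (0.0092), Kcnf1 (0.0085) and Kcnip2 (0.0086) and changed no call of a member, so that 0 members were called with the pairing too. Log2 fold changes changed sign with the choroid plexus score for Cacnb3 (-0.046), Cacng3 (-0.077), Cacng4 (-0.35), Kcng4 (-0.18), Kcnh2 (-0.15), Kcnh3 (0.21), Kcnh8 (-0.26), Kcnip2 (0.37), Kcnj11 (-0.063), Kcnj13 (1.35), Kcnj5 (-0.38), Kcnj8 (0.28), Kcnma1 (-0.33), Kcns2 (-0.24), Scn2a (-0.11) and Scn2b (-0.14). They did so with the neuron score for Cacng3 (-0.048), Cacng4 (-0.14), Kcng4 (-0.041), Kcnh2 (-0.0600), Kcnj5 (-0.032), Kcnj8 (0.015), Kcnma1 (-0.014) and Scn2b (-0.012), with the cortical score for Cacna1g (0.0698), Hcn4 (0.11), Kcna3 (0.16), Kcnip2 (0.011), Kcnip4 (0.057) and Kcnj6 (-0.019), with the striatal score for Kcnf1 (0.036), Kcnip2 (0.041) and Kcnj6 (-0.0103), and with no filter for Kcnh2 (-1.9e-05). The astrocyte score turned Cacna1b (-0.29), Cacna2d1 (-0.64), Cacnb3 (-0.15), Cacng3 (-0.22), Cacng4 (-0.47), Hcn2 (0.0398), Kcnab2 (0.57), Kcnc1 (0.0048), Kcnc4 (-0.24), Kcnf1 (0.25), Kcnh2 (-0.011), Kcnh3 (4.24), Kcnh5 (-0.31), Kcnh8 (-0.72), Kcnip1 (-0.35), Kcnip2 (2.35), Kcnj4 (3.00), Kcnj5 (-0.94), Kcnj6 (-0.13), Kcnj8 (1.92), Kcnk1 (0.47), Kcnk9 (-0.24), Kcnma1 (-0.95), Kcnmb4 (0.13), Kcnn2 (0.15), Kcnq1 (0.46), Kcns1 (1.18), Kcns2 (-0.58), Scn2a (-1.15), Scn2b (-0.17), Scn3a (-0.68), Scn3b (-0.51), Scn4b (1.33), Scn8a (0.043) and Scn9a (-1.17). With 1 mouse left out, the sign turned within the ranges of Cacna1g (-0.19 to 0.13), Cacna2d4 (-0.32 to 0.096), Cacnb4 (-0.42 to 0.059), Cacng2 (-0.39 to 0.0051), Cacng3 (-0.23 to 0.25), Cacng4 (-0.087 to 0.23), Cacng8 (-0.097 to 0.31), Hcn4 (-0.26 to 0.20), Kcna3 (-0.47 to 0.17), Kcnc1 (-0.065 to 0.0197), Kcnf1 (-0.15 to 0.13), Kcng1 (-0.30 to 0.94), Kcng4 (-0.15 to 0.14), Kcnh1 (-0.012 to 0.80), Kcnh2 (-0.049 to 0.061), Kcnh3 (-1.38 to 0.38), Kcnh4 (-0.60 to 0.77), Kcnip2 (-0.69 to 0.42), Kcnip4 (-0.19 to 0.061), Kcnj4 (-1.34 to 0.32), Kcnj5 (-0.096 to 0.26), Kcnj6 (-0.18 to 0.13), Kcnj8 (-0.50 to 0.13), Kcnma1 (-0.043 to 0.24), Kcnmb4 (-0.39 to 0.015), Kcnq3 (-0.25 to 0.10), Kcnq5 (-0.024 to 0.51), Scn1a (-0.24 to 0.019) and Scn4b (-0.75 to 0.21). Over all 119 tested members, named or not, 4 turned with the block, 37 with the choroid plexus score, 23 with the neuron score, 8 with the cortical score, 4 with the striatal score, 59 with the astrocyte score, 1 with no filter and 11 to 26 with 1 mouse left out. Of the 78 named, 26 kept their sign in every setting, and of the 119, 31 did in all 16 alternatives, 18 higher and 13 lower in RN. Kcnj10, Kcnj16, Kcne1l, Kcnk10, Cacna1e, Cacng5 and Hcn3 were among the 31. With 3 mice a group, members at a few CPM rest on few counts, and intervals narrower than the spread between mice cannot be had.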

Other observations

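Vascular and ventricular markers, which the comparison of channels did not use, also differed in level. The 12 endothelial markers summed to 776, 686 and 726 CPM in the RC mice and 494, 638 and 573 CPM in the RN mice, and 7 had an unadjusted p under 0.05, all lower in RN. Pecam1, an adhesion molecule of vessel walls, was at 79.4, 63.9 and 68.3 CPM in the RC mice and 35.2, 47.3 and 47.9 CPM in the RN mice (log2 fold change -0.70, SE 0.14, edgeR adjusted p = 0.122). The 11 ependymal markers summed to 147, 143 and 160.3 CPM in the RC mice and 84.8, 105 and 80.5 CPM in the RN mice, and Foxj1, the regulator of motile cilia, was at 50.03, 55.9 and 56.1 CPM in the RC mice and 23.2, 31.7 and 31.4 CPM in the RN mice (log2 fold change -0.91, SE 0.13, edgeR adjusted p = 0.063). None of these lists held a called gene. Markers of GABA neurons summed to 1048, 1352 and 1348 CPM in the RC mice and 1457, 1938 and 2104 CPM in the RN mice, and 7 of 9 had a log2 fold change above 0, 2 of them at an unadjusted p under 0.05 beside 1 lower. Those were Spp1 (log2 fold change 1.38, SE 0.28, edgeR adjusted p = 0.116), which microglia also express, Gad2 (log2 fold change 0.50, SE 0.17, edgeR adjusted p = 0.293), which overlapped between the groups, and Pvalb (log2 fold change -0.65, SE 0.24, edgeR adjusted p = 0.318). Without Spp1 the sums overlapped, at 827, 1049 and 1083 CPM in the RC mice and 1048, 978 and 1426 CPM in the RN mice.

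Sums overlapped between RC and RN for the oligodendrocyte, oligodendrocyte precursor, microglia, pericyte and habenular lists. For microglia and macrophages they were 3139.5, 2651 and 2366 CPM in the RC mice and 2238, 3124 and 3064 CPM in the RN mice, and 4 of 14 genes had an unadjusted p under 0.05 and were higher in RN while 1 was lower. Oligodendrocyte markers summed to 12326, 15897 and 13600 CPM in the RC mice and 13502, 12921 and 9889 CPM in the RN mice, their precursors to 438, 501 and 472 CPM and 579, 412 and 504 CPM, pericyte and smooth muscle markers to 433, 415 and 456 CPM and 392, 515 and 389.5 CPM, and habenular markers to 324, 229 and 302 CPM and 394, 315 and 368 CPM.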
